A study of Mus musculus with 12 samples.

Results

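MHC class I presentation was followed through 10 genes, taken as the rows of H2-K1, H2-D1, B2m, Tap1, Tap2, Tapbp, Psmb8, Psmb9, Psmb10 and Psme1 among the 24781 rows of the table. All 10 were read in all 12 libraries and all 10 passed the filter on low values, which left 9580 genes to test. Each library counted RNA molecules of 100 tumour-associated macrophages (TAMs), sorted as CD45+CD11b+F4/80high cells from MC38 tumours (a mouse colon carcinoma line) on day 7 after inoculation. The 6 DMSO libraries came from wild-type mice given the solvent DMSO, and the 6 picrotoxin libraries from wild-type mice given picrotoxin, a blocker of GABA type A receptors. Both groups carried the same tumour, no transgene and no deletion, and injections began the day before inoculation and were repeated every other day. The study used male and female mice of 2 to 5 months, and the age and sex behind each library are not analysed here. The question was whether blocking the receptor for GABA changes the transcripts by which macrophages cut, transport and display peptides to CD8+ T cells.

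MHC class I molecules display peptides from inside the cell. The heavy chains H2-K and H2-D, encoded by H2-K1 and H2-D1, pair with the light chain β2-microglobulin (B2m). Peptides are cut by the proteasome, pumped into the endoplasmic reticulum by the transporter formed by Tap1 and Tap2, and loaded with the help of tapasin (Tapbp). Under interferon-γ, cells build the immunoproteasome, in which Psmb8, Psmb9 and Psmb10 take the places of the constitutive catalytic subunits Psmb5, Psmb6 and Psmb7, and the cap subunits Psme1 and Psme2 help to open it. Interferon-γ raises most of these genes together, so they are often read as one programme.

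Of the 10 genes, 7 lie on chromosome 17 in or beside the MHC, between positions 33915899 and 35267499 of GRCm38. B2m lies at chr2:122147686-122153083, Psmb10 at chr8:105935735-105938444 and Psme1 at chr14:55578123-55581529. Stretches just before the RefSeq starts of the heavy chain genes and B2m are shown. B2m had the lowest adjusted p of the 10 genes, and all 3 class I chain genes carry letters of the same known motifs. In GENCODE, which gave the gene positions, H2-D1 starts earlier, at 35262730, so its stretch lies inside that gene. In RefSeq windows from 250 bases before to 50 bases after the start (GRCm38.p6), 9 of the 10 genes had an entry. Capitals mark letters that match the consensus of the NF-κB binding site, or the repeat read by interferon regulatory factors, written either as GAANNGAAA or as GAAA repeated after any 2 bases, with both strands searched.
H2-K1, chr17:34000409-34000478, minus strand: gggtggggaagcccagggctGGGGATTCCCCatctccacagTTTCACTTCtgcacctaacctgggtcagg
H2-D1, chr17:35262903-35262972, plus strand: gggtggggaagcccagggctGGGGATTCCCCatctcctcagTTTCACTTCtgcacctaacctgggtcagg
B2m, chr2:122147528-122147590, plus strand: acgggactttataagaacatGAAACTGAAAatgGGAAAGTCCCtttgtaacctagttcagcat

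The H2-K1 and H2-D1 stretches differed at 1 of 70 bases. In both, the NF-κB match came first and the interferon regulatory repeat, read on the reverse strand, followed, whereas in B2m the repeat came first. The NF-κB consensus was present for 3 of the 9 genes with a window (H2-K1, H2-D1 and B2m). It was present for 9.55% of all 27025 genes with a window and in 8.46% of all 32851 windows. GAANNGAAA was present for H2-K1, H2-D1 and Psme1, against 8.68% of genes and 7.52% of windows. The GAAA repeat was present for B2m and Psme1, against 3.99% of genes and 3.44% of windows. In Psme1 these last matches overlapped each other. The windows of Tap1 and Psmb9 shared 275 bases (chr17:34187306-34187580), since the genes start 226 bases apart on opposite strands. These motifs were searched after the windows had been read, and a match describes letters, not binding.

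The libraries held 201697 to 309617 molecules. The 12 macrophage markers summed to 1.08% to 1.53% of molecules in DMSO and 1.33% to 1.45% in picrotoxin libraries, with none at 0 throughout. Adgre1, the F4/80 gene of the sort, gave 46 to 98 molecules per library. Itgam, the CD11b gene of the sort, had a log2 fold change of 0.38 and the mannose receptor gene Mrc1 one of 0.48 (edgeR, adjusted p = 0.408 and 0.428). Markers of other leukocytes were near 0. Cd3e, Cd3g and Cd8a of T cells, Ly6g of neutrophils, and Ms4a1 of B cells had no molecule in any library, and the 12 T and NK cell markers summed to at most 1 molecule in DMSO libraries and 23 in picrotoxin libraries. Of those 23, in picrotoxin 6, 20 were of Gzmb, and the interferon-γ gene Ifng itself reached at most 2 molecules in any library. Dendritic cell markers gave 3 to 13 molecules per library. Neutrophil markers gave 4 to 10, with Csf3r at 2 to 10 and Cxcr2 at 0 to 6, and the B cell marker Cd79b gave 0 to 3. The MC38 epithelial markers Epcam, Krt18, Krt19 and Krt7 were at 0, and Cdh1, with 8 to 20 molecules, had a log2 fold change of 0.70 (adjusted p = 0.428). Fibroblast and matrix markers were the exception, and they are given below.

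None of the 10 genes changed under picrotoxin at an adjusted p under 0.05 in edgeR's quasi-likelihood test, where 5 of 9580 genes did (0.0522%). At an unadjusted p under 0.05, 1 gene was higher (B2m) and 1 was lower (Psmb10), beside 350 higher (3.65%) and 394 lower (4.11%) of all tested genes. DESeq2 and limma-voom likewise called none of the 10 at an adjusted p under 0.05. The estimates of the 3 class I chain genes were above 0, those of the 4 immunoproteasome genes were below 0, as were 50.8% of all tested genes, and of the loading genes 1 was above and 2 were below. No test compared these roles. Psmb8 and Psme1 lay within their SE of 0 and were above 0 in 6 and 3 of 23 refits, and H2-K1, also within its SE, was below 0 in 2. The median log2 fold change was -0.04 over the 10 genes and -0.01 over all tested genes. Together the 10 genes made up 0.772%, 0.895% and 1.25% of molecules (lowest, median, highest) in DMSO libraries and 0.939%, 1.02% and 1.11% in picrotoxin libraries. The means were 0.973% ± 0.183 and 1.02% ± 0.0736 (SD, n = 6 each), a difference smaller than the spread between DMSO libraries. In RNA from sorted cells, fewer cells that express a gene and less RNA per cell cannot be told apart.

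**Figure D1:**
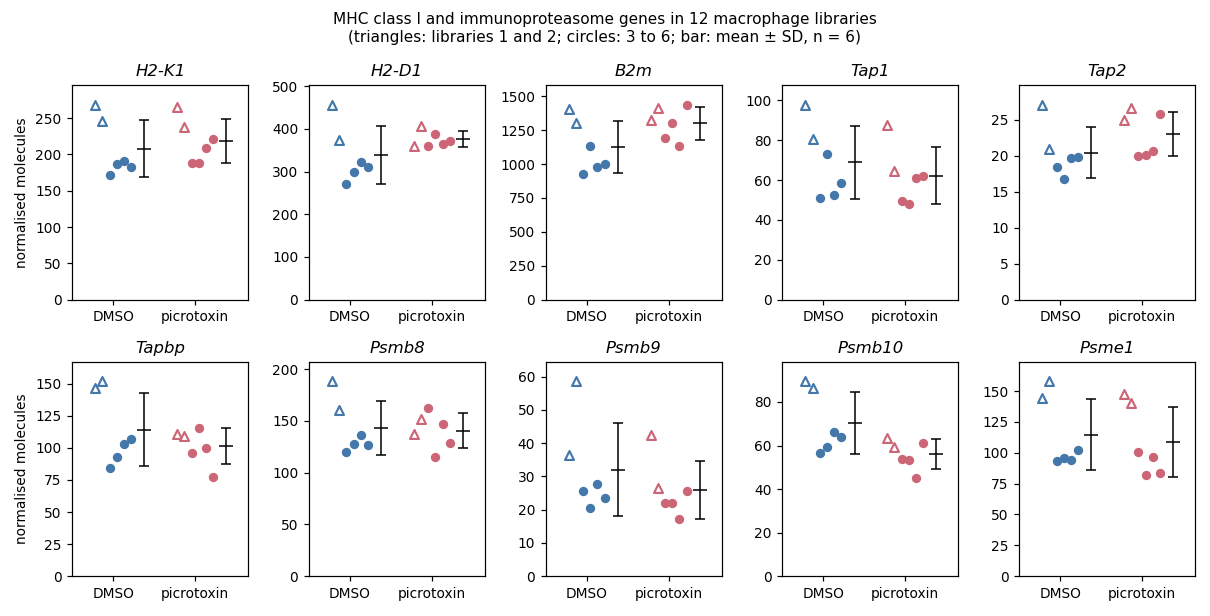
Normalised molecules (y axis, starting at 0) of each gene in the 6 DMSO (blue) and 6 picrotoxin (red) libraries; triangles are libraries 1 and 2, circles are 3 to 6, and bars give the mean ± SD. The groups overlap for all 10 genes, and in DMSO the 2 triangles lie above all 4 circles in every panel.

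B2m encodes the light chain shared by all class I molecules. It had 929, 1067 and 1408 normalised molecules (lowest, median, highest; molecules divided by size factors) in DMSO libraries and 1135, 1313 and 1437 in picrotoxin libraries. All 6 picrotoxin libraries were above the DMSO mean, 2 were above the highest DMSO library, and the groups overlapped. The log2 fold change was 0.22 (SE 0.09, 95% interval 0.03 to 0.40), a 1.16-fold difference, and it did not pass adjustment (edgeR, adjusted p = 0.575).

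H2-D1, a class I heavy chain gene, had 270.4, 316 and 457 normalised molecules in DMSO and 360.4, 369 and 407 in picrotoxin libraries. All 6 picrotoxin libraries were again above the DMSO mean, yet DMSO 1 was higher than all 6 and DMSO 2 higher than 4 of them. The log2 fold change was 0.16 (SE 0.10, edgeR, adjusted p = 0.757). H2-K1, the other heavy chain gene, had 171, 189 and 268 in DMSO and 188, 216 and 265 in picrotoxin libraries, and the ranges nearly coincided. Its log2 fold change was 0.09 (SE 0.12, adjusted p = 0.926). H2-D1 was even across picrotoxin libraries, with a coefficient of variation of 4.92% against 19.8% in DMSO. The coefficient was lower in picrotoxin than in DMSO libraries for 9 of the 10 genes, all but Psme1. It was also lower for 47.4% of all tested genes and for 52.2% of those with a mean of at least 10 normalised molecules. No test of spread was made.

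The heavy chain genes belong to a family with near-identical stretches. In GENCODE transcripts, H2-K1 shared at least 100 bases at 95% identity or more with 8 other genes and H2-D1 with 5, each other included, and the longest such stretch with a class I relative was 286 bases for H2-K1 (H2-Q1) and 280 for H2-D1 (H2-Q7). How the counting dealt with such reads was not stated, so the split between these genes is uncertain. The partners of H2-D1 included Cflar and Kdm2a, which are not class I genes. Outside the heavy chains, Tapbp shared such stretches with 29 genes, with both strands compared. The longest was 297 bases at 100% identity with Gm19412, a gene that overlaps Tapbp on the opposite strand. Psme1 shared 224 bases with Gm7776, and Tap1, Tap2, Psmb8 and Psmb9 shared stretches with 1 or 2 genes each. These included genes that overlap them on the opposite strand, such as Psmb9 for Tap1 and Gm20496 for Tap2 and Psmb8. A stretch shared with such a gene can be the same place in the genome, not a copy elsewhere. B2m and Psmb10 had no such stretch in any other gene.

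Tap1 and Tap2 form the peptide transporter, and their estimates lay on either side of 0. Tap1 had 51.2, 65.9 and 97.8 normalised molecules in DMSO and 48.2, 61.6 and 87.6 in picrotoxin libraries, with 5 of 6 picrotoxin libraries below the DMSO mean. Its log2 fold change was -0.12 (SE 0.16, edgeR, adjusted p = 0.920). Tap2 had 16.7, 19.7 and 27.1 in DMSO and 19.98, 22.8 and 26.5 in picrotoxin libraries, with 4 of 6 above the DMSO mean. Its log2 fold change was 0.19 (SE 0.18, adjusted p = 0.864). Tapbp, the gene of the loading chaperone tapasin, had 84.0, 105 and 152 in DMSO and 77.1, 105 and 115 in picrotoxin libraries. The medians were alike and the DMSO mean was raised by DMSO 1 and 2, with a log2 fold change of -0.16 (SE 0.14, adjusted p = 0.849). Tap1 overlaps Psmb9 on the opposite strand, and Tapbp overlaps Zbtb22 on its own strand, where strand would not separate them. Tapbp, B2m, Tap2, Psmb8, Psmb10 and Psme1 also overlap other genes on the opposite strand. Whether the counting used strand was not stated.

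Psmb10, a catalytic immunosubunit, had the estimate farthest below 0. It had 56.3, 65.0 and 89.5 normalised molecules in DMSO and 44.9, 56.5 and 63.6 in picrotoxin libraries. All 6 picrotoxin libraries were below the DMSO mean and 3 were below the lowest DMSO library. The log2 fold change was -0.31 (SE 0.14, 95% interval -0.58 to -0.04), a 0.808-fold level, and it did not pass adjustment (edgeR, adjusted p = 0.602).

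The remaining immunoproteasome genes gave no difference beyond the spread. Psmb9 varied most, with 20.4, 26.7 and 58.6 normalised molecules in DMSO and 17.3, 23.9 and 42.4 in picrotoxin libraries. The highest were DMSO 2 and picrotoxin 1, and DMSO 1, at 36.4, was also above DMSO 3 to 6 (20.4 to 27.8). Its log2 fold change was -0.25 (SE 0.22, edgeR, adjusted p = 0.853). Psmb8 had 119.8, 132 and 188 in DMSO and 115, 142 and 163 in picrotoxin libraries, 3 of which were above the DMSO mean and 3 below, with a log2 fold change of -0.02 (SE 0.12, adjusted p = 0.991). For Psme1, a cap subunit, the values were 93.2, 99.0 and 158 in DMSO and 82.3, 98.8 and 147 in picrotoxin libraries. In each group, libraries 1 and 2 of Psme1 formed a separate high pair, and the log2 fold change was -0.06 (SE 0.15, adjusted p = 0.964).

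The make-up of the proteasome was read as the ratio of each immunosubunit to the constitutive subunit whose place it takes, a measure within a library that needs no scaling. The constitutive genes gave no adjusted call either. Psmb5 had a median of 42.5 normalised molecules in DMSO and 51.3 in picrotoxin libraries, with all 6 picrotoxin libraries above the DMSO mean (log2 fold change 0.23, SE 0.13, edgeR, adjusted p = 0.740). The medians were 40.3 and 27.9 for Psmb6 (-0.36, SE 0.19, adjusted p = 0.683) and 37.8 and 36.1 for Psmb7 (-0.04, SE 0.15, adjusted p = 0.981). The log2 ratio of Psmb8 to Psmb5 averaged 1.68 ± 0.35 over DMSO libraries and 1.44 ± 0.31 over picrotoxin libraries (SD, n = 6 each), a difference of -0.24 (exact permutation test, two-sided, p = 0.245, adjusted over 3 ratios 0.367). The ratio of Psmb10 to Psmb7 was 0.85 ± 0.41 and 0.59 ± 0.30, a difference of -0.26 (exact permutation test, p = 0.236, adjusted 0.367). The ratio of Psmb9 to Psmb6 was -0.34 ± 0.57 and -0.19 ± 0.53, a difference of 0.14 in the other direction (exact permutation test, p = 0.662, adjusted 0.662). The test took every assignment of 6 of the 12 libraries and could give a p as small as 0.00216. None of the 3 ratios differed beyond the spread between libraries.

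**Figure D2:**
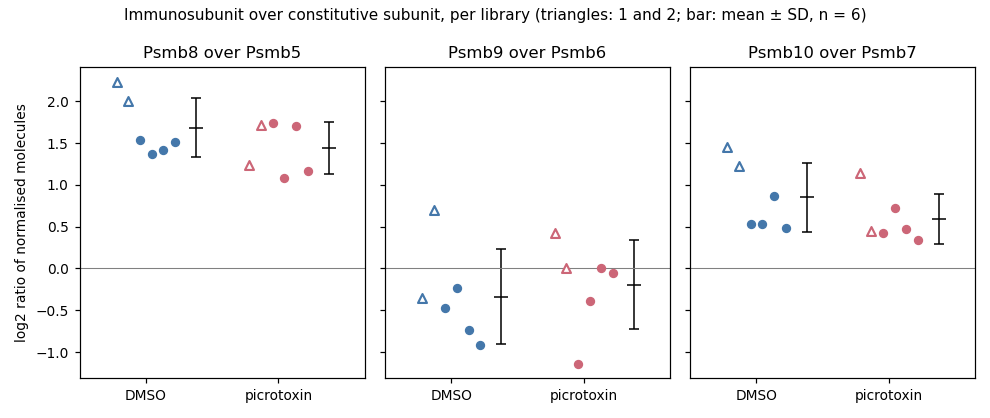
Log2 ratio of immunosubunit to constitutive subunit (y axis) in each DMSO (blue) and picrotoxin (red) library; triangles are libraries 1 and 2, and bars give the mean ± SD. For Psmb8 over Psmb5 and Psmb10 over Psmb7, DMSO 1 and 2 are the highest 2 of all 12 libraries, and the groups overlap in every panel.

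Levels of the 10 genes varied with the number of the library. In DMSO, libraries 1 and 2 were the highest 2 of 6 for all 10 genes, a pattern that 9.59% of the tested genes had. In picrotoxin this held for 4 of 10, H2-K1, Tap1, Psmb9 and Psme1, against 6.96% of tested genes, and the same 4 showed it in both groups, as did 1.22% of tested genes. The mean of libraries 1 and 2 over that of 3 to 6 ran from 1.29 (Tap2) to 1.95 (Psmb9) in DMSO, with a median of 1.42, and from 1.03 (H2-D1) to 1.58 (Psme1) in picrotoxin, with a median of 1.17. DMSO 3 was the lowest DMSO library for 8 of the 10 genes. The labels describe the numbers as separate library preparations and name no batch, and the split into 1 and 2 against 3 to 6 was known from earlier results of these data, so it is a description with no test.

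**Figure D3:**
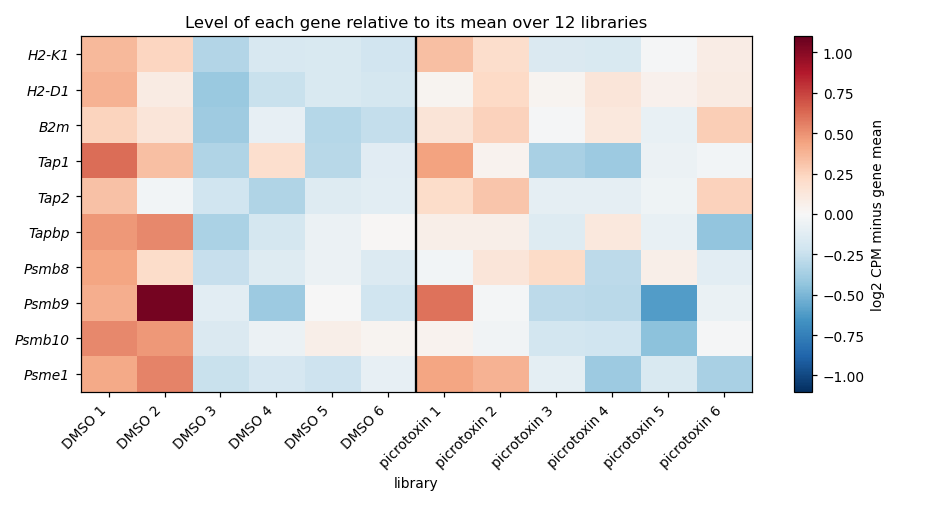
Log2 CPM of each gene minus its mean over the 12 libraries (colour, red above and blue below the mean), with libraries in columns and a line between DMSO and picrotoxin. DMSO 1 is above the mean for all 10 genes and DMSO 3 below it for all 10, and Psme1 is high in libraries 1 and 2 of both groups.

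Within the number classes the groups compared differently. Among libraries 3 to 6, every picrotoxin library was above every DMSO library for 3 genes, B2m, H2-D1 and Tap2, against 2.16% of tested genes, and none of the 10 was wholly lower, against 2.58%. With all 12 libraries none of the 10 was free of overlap, against 0.386% of tested genes. For B2m the 4 DMSO libraries lay between 929 and 1131 and the 4 picrotoxin libraries between 1135 and 1437, and its log2 fold change was 0.35 (SE 0.09, edgeR, adjusted p = 0.110). For H2-D1 the ranges were 270.4 to 321 and 360.7 to 389, with a log2 fold change of 0.33 (SE 0.10, adjusted p = 0.180). These were the estimates nearest to a call, and neither passed. Among libraries 1 and 2 the picrotoxin mean was above the DMSO mean for 2 of the 10 genes, with log2 ratios of 0.01 for B2m and -0.12 for H2-D1, and it was furthest below for Psmb10 (-0.52). Psmb10 was also lower among libraries 3 to 6 (log2 fold change -0.19, SE 0.15, adjusted p = 0.777). Whether the number classes differ in their response was not tested.

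Fibroblast and matrix markers also varied between libraries. Of 14 such genes, 12 were tested in edgeR, and 9 had a lower estimate under picrotoxin at an unadjusted p under 0.05. Of all tested genes, 4.11% were lower at this threshold. The median log2 fold change was -1.84 over the 12, and 0 passed adjustment (edgeR, lowest adjusted p = 0.109). Limma-voom gave an unadjusted p of 0.038 for Col5a1 and 0.0495 for Sparc, but 0.115 for Col1a1 and 0.0809 for Col3a1. DESeq2 gave no p for Col1a1, Col1a2 and Postn. Col1a1 had 160 normalised molecules in DMSO 5 and at most 2.93 in any other library. Without Fn1, which macrophages also make, the markers summed to 0.00857%, 0.0327% and 0.304% of molecules in DMSO libraries (lowest, median, highest) and to 0.00440%, 0.0131% and 0.0273% in picrotoxin libraries. The highest were DMSO 5 and DMSO 3, the latter also the lowest library for most of the 10 genes, and the lowest 2 of the DMSO libraries were 1 and 2. DMSO 5, highest in these markers, had 0.880% of its molecules in the 10 genes, near the DMSO median of 0.895%. Picrotoxin 3, lowest in these markers, had the lowest share of the 10 genes in its group, 0.939%. No correlation of the markers with the 10 genes was computed. Fn1 itself was at 186 and 211 normalised molecules in DMSO 2 and 1 and between 391 and 511 in DMSO 3 to 6, and at 257 and 273 in picrotoxin 1 and 2 and between 381 and 478 in picrotoxin 3 to 6. The mean log2 level of the 12 tested matrix markers, Fn1 included, was also used as a covariate. Of these 12, 11 had estimates below 0 under picrotoxin, so the covariate and the treatment were partly confounded. With it, the log2 fold change of B2m was 0.09, that of H2-D1 0.07, that of H2-K1 -0.02 and that of Psmb10 -0.42 (edgeR, adjusted p = 0.929, 0.956, 0.991 and 0.651). Leaving out DMSO 3 and DMSO 5, chosen after seeing the data, gave 0.10, 0.06, -0.01 and -0.40 for the same genes (adjusted p = 0.954, 0.965, 0.991 and 0.795). The estimates of B2m and H2-D1 were thus smaller than with all libraries, and that of Psmb10 was further below 0. The part of other cells in the values was not tested further.

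**Figure D4:**
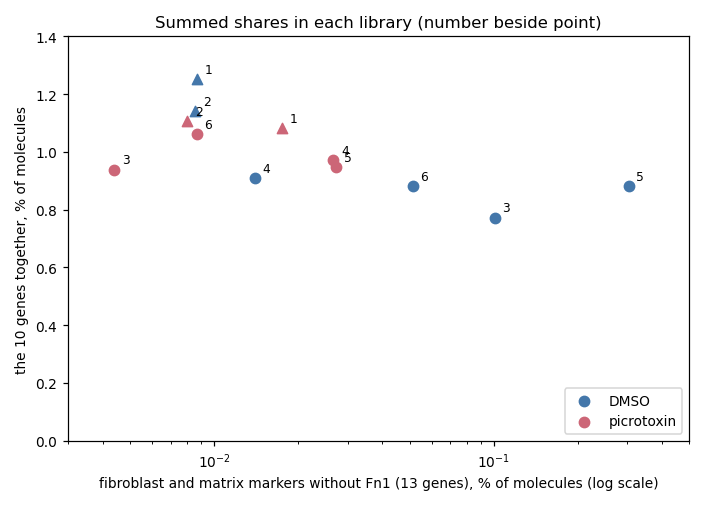
Summed share of molecules of the 10 genes (y axis, starting at 0) against that of 13 fibroblast and matrix markers (x axis, log scale) in each library, numbered as in its group. DMSO 3 and 5 lie farthest right, at 0.101% and 0.304%, and DMSO 1 and 2 are highest.

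**Figure D5:**
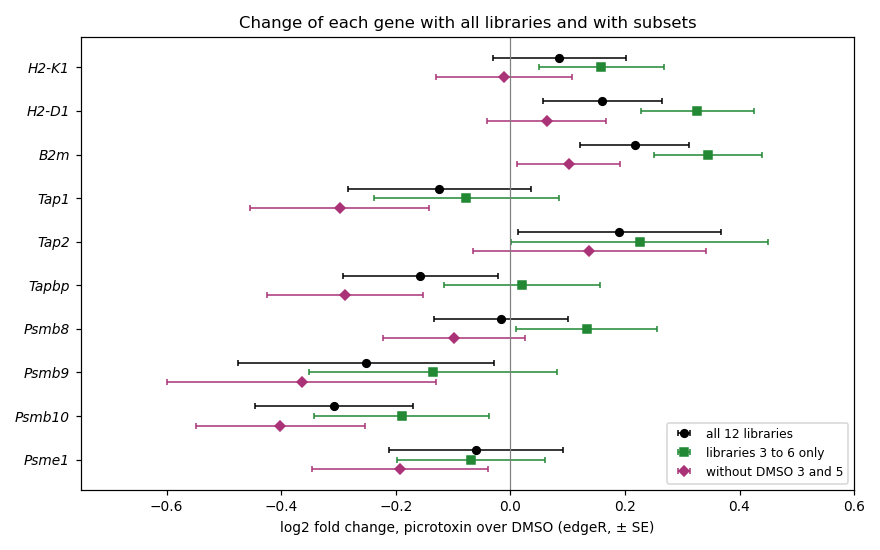
Log2 fold change, picrotoxin over DMSO, of each gene (x axis; points ± SE from edgeR) with all 12 libraries (black), with libraries 3 to 6 only (green) and without DMSO 3 and 5 (purple). B2m and H2-D1 move from 0.22 and 0.16 to 0.35 and 0.33 with libraries 3 to 6, and Psmb10 is below 0 in all 3.

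Genes that work beside these 10 gave no adjusted call either. Of 51 partner genes, 43 were tested, 21 with estimates above 0 and 22 below, with 2 higher and 2 lower at an unadjusted p under 0.05 and 0 called at an adjusted p under 0.05 (edgeR). Of all 9580 tested genes, 4709 estimates were above 0 and 4871 below. At an unadjusted p under 0.05 in edgeR, 3.65% of them were higher and 4.11% lower. Among 7 proteasome cap and assembly genes 6 estimates were below 0. Psme2, the partner of Psme1, had medians of 64.0 and 75.1 normalised molecules in DMSO and picrotoxin libraries (log2 fold change 0.18, SE 0.12, adjusted p = 0.785). Psmg1, an assembly chaperone of the proteasome, had medians of 7.75 and 3.10 (-0.83, SE 0.36, adjusted p = 0.574), with 4 of 6 picrotoxin libraries below the lowest DMSO library.

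The chaperones and the trimming peptidase of the endoplasmic reticulum, 5 genes, had 2 estimates above 0 and 3 below. Calreticulin (Calr), which holds the heavy chain for loading, had medians of 285 and 286 normalised molecules and a log2 fold change of -0.01 (SE 0.09, edgeR, adjusted p = 0.993). Calnexin (Canx), an earlier folding chaperone, gave -0.04 (SE 0.10, adjusted p = 0.955). Pdia3, the thiol oxidoreductase of the loading complex, gave 0.16 (SE 0.12, adjusted p = 0.817), with all 6 picrotoxin libraries above the DMSO mean. Erap1, which trims peptides, gave 0.22 (SE 0.25, adjusted p = 0.896).

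Of 16 regulators and signalling genes, 12 estimates were above 0, beside 4709 of all 9580 tested genes. Of these 12, 2 had an unadjusted p under 0.05 (edgeR), beside 3.65% of all tested genes that were higher at this threshold. Irf8, an interferon regulatory factor of the macrophage lineage, had 83.0, 124 and 156 normalised molecules in DMSO and 137, 159 and 175 in picrotoxin libraries. All 6 picrotoxin libraries of Irf8 were above the DMSO mean and 3 were above the highest DMSO library, with a log2 fold change of 0.39 (SE 0.13, edgeR, adjusted p = 0.341). Among libraries 3 to 6 it was 0.56 (SE 0.13, edgeR, adjusted p = 0.0394), where 49 of 9666 genes had an adjusted p under 0.05. That split was known from earlier results of these data, so this value is descriptive. It leaves out DMSO 1 and 2, the DMSO libraries with the most Irf8 (156 and 141 normalised molecules). Without DMSO 3 and 5 the log2 fold change of Irf8 was 0.21 (edgeR, adjusted p = 0.900). Jak2, a kinase of the interferon-γ receptor, had medians of 17.1 and 22.3 (0.45, SE 0.19, adjusted p = 0.563). Nlrc5, the transactivator of class I genes, gave -0.06 (SE 0.23, adjusted p = 0.981). Irf1, an interferon-γ-induced factor that acts on many of these promoters, gave 0.22 (SE 0.18, adjusted p = 0.827).

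Of 20 nonclassical and other class I genes, 12 were tested, 5 with estimates above 0 and 7 below, and the other 8 had too few molecules. H2-M3, which presents formylated peptides, had medians of 15.4 and 9.33 normalised molecules (log2 fold change -0.52, SE 0.24, edgeR, adjusted p = 0.622), with 4 of 6 picrotoxin libraries below the lowest DMSO library. H2-T23, the gene of Qa-1, gave -0.04 (SE 0.29, adjusted p = 0.991). Reads of this family can be shared between its members.

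The genes whose level across libraries was most like the mean of the 10 were searched among 3694 others with a mean of at least 10 normalised molecules. The nearest were Ms4a4c, Samhd1, Ly6e, Cd52 and Tmsb4x, with Pearson correlations of log2 CPM over the 12 libraries of 0.934, 0.928, 0.926, 0.918 and 0.910. After the means of each group and number class were removed, the correlations were 0.112, 0.613, 0.532, 0.361 and 0.387, all lower. Group and number class were removed together, so their parts in the likeness were not told apart. The genes were also picked for the highest correlations of 3694, and a lower second value can follow from that choice. Among the 10 genes themselves, the correlation of a gene with the mean of the other 9 ran from 0.649 (B2m) to 0.923 (H2-K1), and after removal of the same means from -0.354 (Tapbp) to 0.727 (H2-K1). All points share library depth and the same 100 cells per library, and no test was made of these values.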

How the data were processed

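RNA molecules were counted in 12 libraries, 6 DMSO and 6 picrotoxin. The authors lysed 100 sorted cells per library, copied fragmented RNA with an oligo-dT primer carrying a molecular barcode, mapped reads to mm10 with STAR and the refFlat annotation, and deposited whole-number molecule counts per gene. Priming of this kind favours 3′ ends. The handling of multi-mapped reads and of strand is not given in the sources used here. No row of the spike-in RNAs named in the labels was used. Groups came from the labels, which call the numbers 1 to 6 independent library preparations. The methods of the study give each library its own mouse, while a figure text gives fewer mice than libraries. If libraries share mice, p-values are too small and measure spread that is partly technical.

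Genes with a mean above 1 normalised molecule (DESeq2 size factors) were tested with edgeR 4.0.16 (quasi-likelihood, TMM, Benjamini-Hochberg over 9580 genes), with DESeq2 1.42.0 and limma 3.58.1 (voom) as alternatives, and SEs were taken from the F statistic. Ratios used a pseudocount of 0.5 and an exact two-sided permutation test. A count of 0 allowed a share of up to 0.00149% in the smallest library (3 molecules), for counting error only. Each of the 30 within-group pairs differed by more than sampling noise (chi-square per degree of freedom 1.23 to 3.15), so no library was a copy. The fits were tested on simulated data. Positions are from GENCODE M21 (GRCm38), and promoter windows from RefSeq (GRCm38.p6).

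The 10 genes, partner lists, markers and alternatives were chosen with earlier results of these data known. Named were the 10 genes, partner genes listed by name, every other list gene with an unadjusted p under 0.05 except matrix markers, and the 5 genes most alike. Matrix markers are given by counts with some named as examples. The results of some genes and motifs are not reported here, although the genes are counted in their lists. The granzyme gene Gzmb and Cdh1 came in by that rule.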

Additional observations from a re-analysis of the deposited data

Results flagged for a closer look

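Psmb9 in the library picrotoxin 1, at 42.4 normalised molecules, stood far from the other 5 picrotoxin libraries, which lay between 17.3 and 26.5. The gap was 0.630 of the group's range, above Dixon's critical value of 0.625 for 6 samples. It was 1 of 28 tests of this kind, where chance flags about 1 in 20, or 1.4 here. Without this library the log2 fold change of Psmb9 was -0.46 in place of -0.25.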

How the results depend on the processing

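Over 23 alternatives, none of the 230 refits of the 10 genes gave an adjusted p under 0.05; the lowest was 0.110, and DESeq2 gave no adjusted p for 2. B2m, H2-D1 and Tap2 stayed above 0 and Tap1 and Psmb10 below 0 in every alternative. H2-K1 turned to -0.0180 with the matrix score as a covariate and to -0.0117 without DMSO 3 and 5. Tapbp turned to 0.0198 with libraries 3 to 6. Psmb8 turned to 0.00026 with limma-voom and 0.13 with libraries 3 to 6, and ran from -0.0643 to 0.0736 with 1 library left out. Psmb9 ran from -0.46 to 0.0052 (above 0 without DMSO 2) and Psme1 from -0.17 to 0.0574 (above 0 without DMSO 1, DMSO 2 or picrotoxin 4). The number of all genes called, 5 with edgeR, was 3 with limma-voom, 13 with library totals, 81 with no filter, 49 with libraries 3 to 6, 27 with number class as a term, 1 without DMSO 3 and 5, and 0 with the matrix covariate (561 at an unadjusted p under 0.05; DESeq2 without the covariate called 6). Leaving out 1 library gave 0 to 25, most without DMSO 1. With the replicate number as a block it was 43, and the block changed no call of the 10 genes. Correlations of same-numbered libraries were -0.0164 to 0.0469 over all tested genes. Many of these genes had few molecules, where counting noise also keeps such correlations low, so they cannot decide on pairing. The main test did not take the numbers as pairs. The causes of these changes were not tested. The median of the 10 genes ran from -0.17 to 0.08, and the difference in their summed share from -0.03 to 0.12 percentage points. The 3 subunit ratios kept their direction in every alternative. SEs of the 10 genes were 0.09 to 0.22 on the log2 scale with 6 libraries a group. B2m (0.22, SE 0.09) and Psmb10 (-0.31, SE 0.14) exceeded their SEs and were not called. Changes larger than an SE could therefore also be missed, and the lack of calls does not exclude them.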
